A study of Mus musculus with 9 samples.

Results

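The 35 genes described here encode liver enzymes that break down phenylalanine, tyrosine, tryptophan, histidine, serine, alanine, aspartate, glutamine, proline, glycine, sarcosine, cysteine and acylated amino acids. They were chosen by symbol from a list of these pathways, with no expression value in the rule. The list itself was drawn up with earlier results of these data known. Each symbol matched 1 protein-coding gene among the 54393 gene identifiers of the deposited table. Their transcripts were counted in 9 RNA sequencing libraries of mouse liver. The antibiotics group holds 4 libraries, labelled replicates 1, 2, 3 and 5, from mice given non-absorbable antibiotics, which deplete the gut microbiota. The control group holds 5 libraries, replicates 1 to 5, from conventional mice without antibiotics. All mice carried the strain name C56Bl/6j and ate the purified diet AIN-76a. The antibiotic agents, their dose and duration, and the age and sex of the mice are not stated in the labels.

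The liver takes up most amino acids that arrive from the gut through the portal vein and oxidises the excess. Most of these pathways remove the amino group, by transamination, elimination or oxidation, and pass the carbon on as pyruvate, fumarate, glutamate, acetoacetate or one-carbon units carried on folate, while the cysteine route through Cdo1 keeps the amino group and leads to taurine. Many of these enzymes are hepatocyte products, concentrated near the portal vein, and respond to glucocorticoids, glucagon and protein intake.

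Library totals ran from 15422891 to 59179622 estimated counts with antibiotics, where replicate 5 was the deepest of all libraries and the other 3 the shallowest, and from 28156248 to 49628737 in controls. Levels are given as CPM on TMM-scaled libraries, that is, read counts of a gene relative to the size of its library. In livers with antibiotics the 5 matched hepatocyte markers summed to 74945 to 86057 CPM, against 75479 to 90714 CPM in control livers. Most of each sum was Alb (55643 to 65617 CPM with antibiotics, 57160 to 71590 CPM in controls). Singly, the 5 differed in direction. The log2 fold change with antibiotics was 0.40 ± 0.16 for Cps1 and 0.18 ± 0.14 for Apoa1 (SE). It was -0.12 ± 0.13 for Alb, -0.15 ± 0.12 for Ttr and -0.02 ± 0.10 for Serpina1a (SE). No tested gene of the 8 cell type lists passed. Only 4 of 6 lymphocyte, 1 of 5 adipocyte and 1 of 5 pancreatic acinar markers had enough counts to be tested. Kupffer cell and macrophage markers (7 genes) summed to 159 to 204 CPM with antibiotics and 156 to 472 CPM in controls, where control 2 held the highest sum. Pancreatic acinar markers (5 genes) summed to 10.1 to 20.9 CPM with antibiotics and 9.89 to 15.01 CPM in controls, and 4 of the 5 were at 0 in at least 1 library. Nearly all of each acinar sum was Cela1, while Pnlip and Prss2 were at 0 in every library. Adipocyte markers (5 genes, each at 0 in at least 1 library) summed to 0.784 to 2.43 CPM with antibiotics and 0.0227 to 1.58 CPM in controls. Sums for endothelial cells (168 to 179 against 163 to 208 CPM), stellate cells (158 to 182 against 135 to 197 CPM), bile duct cells (33.7 to 66.8 against 34.1 to 93.7 CPM) and lymphocytes (1.56 to 2.43 against 1.75 to 3.64 CPM) overlapped between antibiotics and control livers. The bile duct sum was mostly Spp1 (29.3 to 60.3 against 30.4 to 87.8 CPM). In bulk liver RNA, a change in the number of hepatocytes and a change in the RNA of each hepatocyte cannot be told apart.

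Antibiotic treatment went with more transcript of 10 of the 35 enzymes and with less transcript of 0 (edgeR's quasi-likelihood test, Benjamini-Hochberg adjusted p under 0.05 over 14873 genes). The 10 were Agxt, Afmid, Sds, Acy1, Gpt, Prodh, Hpd, Sardh, Aldh4a1 and Ftcd, with rises of 1.26-fold to 1.68-fold, and at least 1 of them stood in each of the 7 pathways as grouped here. The glycine cleavage members Gldc and Amt and the cysteine members Cdo1 and Csad were not among them. Among all tested genes 2.68% passed, 1.63% as higher and 1.05% as lower. At an unadjusted p under 0.05, 20 members were higher and 0 lower, against 9.6% and 8.87% of all tested genes. The log2 fold change was above 0 in 30 members, while it was above 0 in 48.6% of tested genes. Over the 35 members its median was 0.27 (range -0.70 to 0.75), and over all tested genes it was -0.01. In 13 members every antibiotics library was higher than every control, and in 0 every one was lower, against 4.59% and 4.29% of tested genes. As the members were chosen with earlier results of these data known, these shares only describe the list. Omitting any single library reduced the number of members that passed from 10 to between 2 and 6, and only Gpt and Acy1 passed in all 9 such fits. DESeq2 called 18 members higher and 0 lower, where it called 6.57% of genes, 3.47% as higher. With limma-voom 11 members were higher and 0 lower, against 2.78% of genes in either direction and 1.82% as higher.

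**Figure D1:**
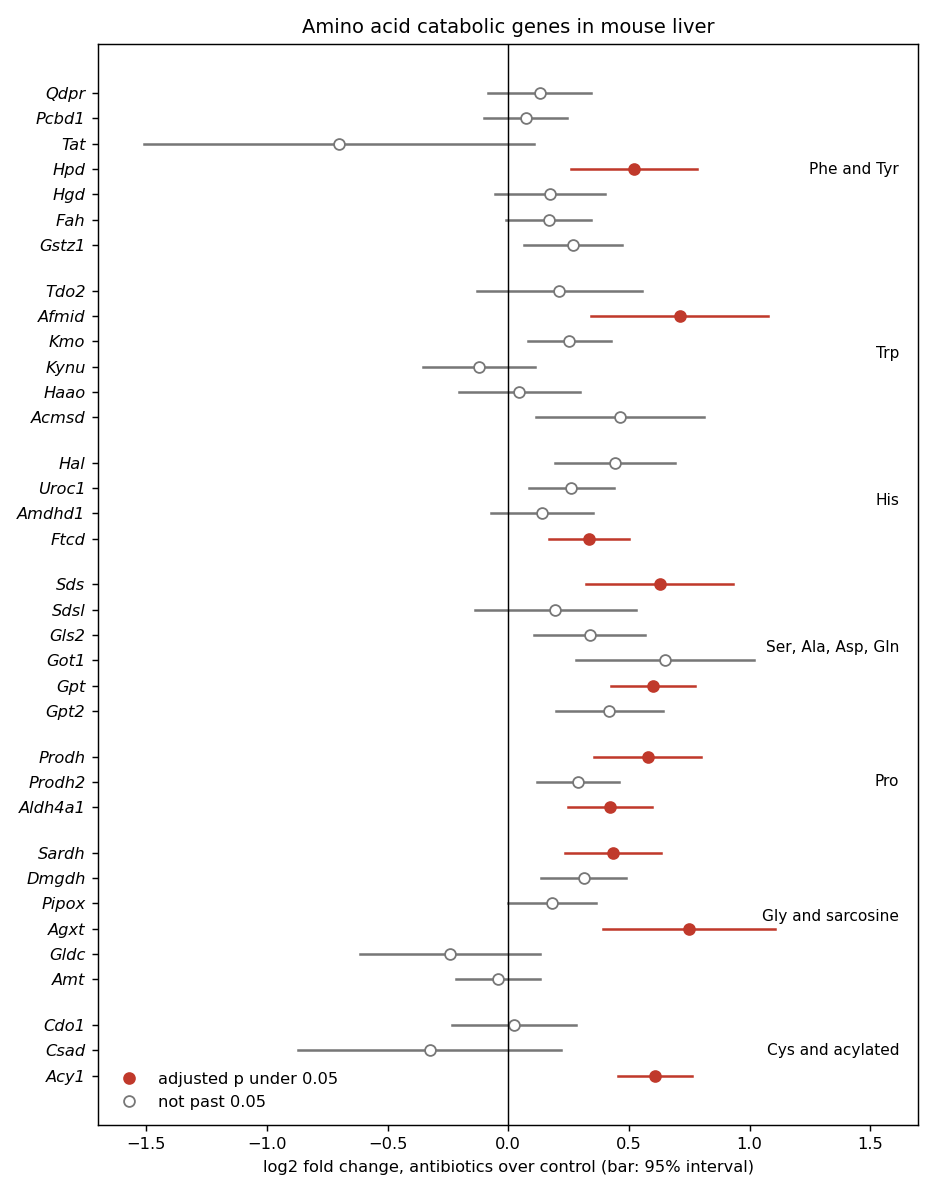
Log2 fold change (antibiotics over control) of each of the 35 members, grouped by pathway; points are edgeR estimates, bars their 95% confidence intervals, and filled points passed at an adjusted p under 0.05. Estimates lie above 0 for 30 members. The 10 that passed fall in all 7 pathways as grouped here, and do not include Gldc, Amt, Cdo1 or Csad.

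Library by library, the median over the 35 members of log2 CPM relative to the control mean was 0.29, 0.30, 0.30 and 0.19 in antibiotics replicates 1, 2, 3 and 5. In controls 1 to 5 it was 0.11, 0.04, -0.06, 0.02 and -0.09. All 4 antibiotics libraries thus lay above all 5 controls, with antibiotics replicate 5 nearest to them. That deepest library was the lowest antibiotics library for 21 members and the highest for 0, while antibiotics replicate 1 was the highest for 17. The 13 mitochondrially encoded mRNAs also varied between libraries: their median was 0.34, 0.45, 0.46 and -0.09 with antibiotics and -0.02, -0.18, 0.34, 0.03 and -0.28 in controls, so the groups overlapped. Their log2 fold changes nevertheless all lay above 0, from 0.02 (mt-Co2) to 0.65 (mt-Nd6), and none of the 13 passed. The median of these fold changes was 0.32, against 0.27 over the members. With all libraries thinned to the smallest total, 32 members kept direction and side of the threshold, 2 no longer passed and 1 changed sign. Beyond this, the part of depth and of mitochondrial mRNA in the members' differences was not tested.

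**Figure D2:**
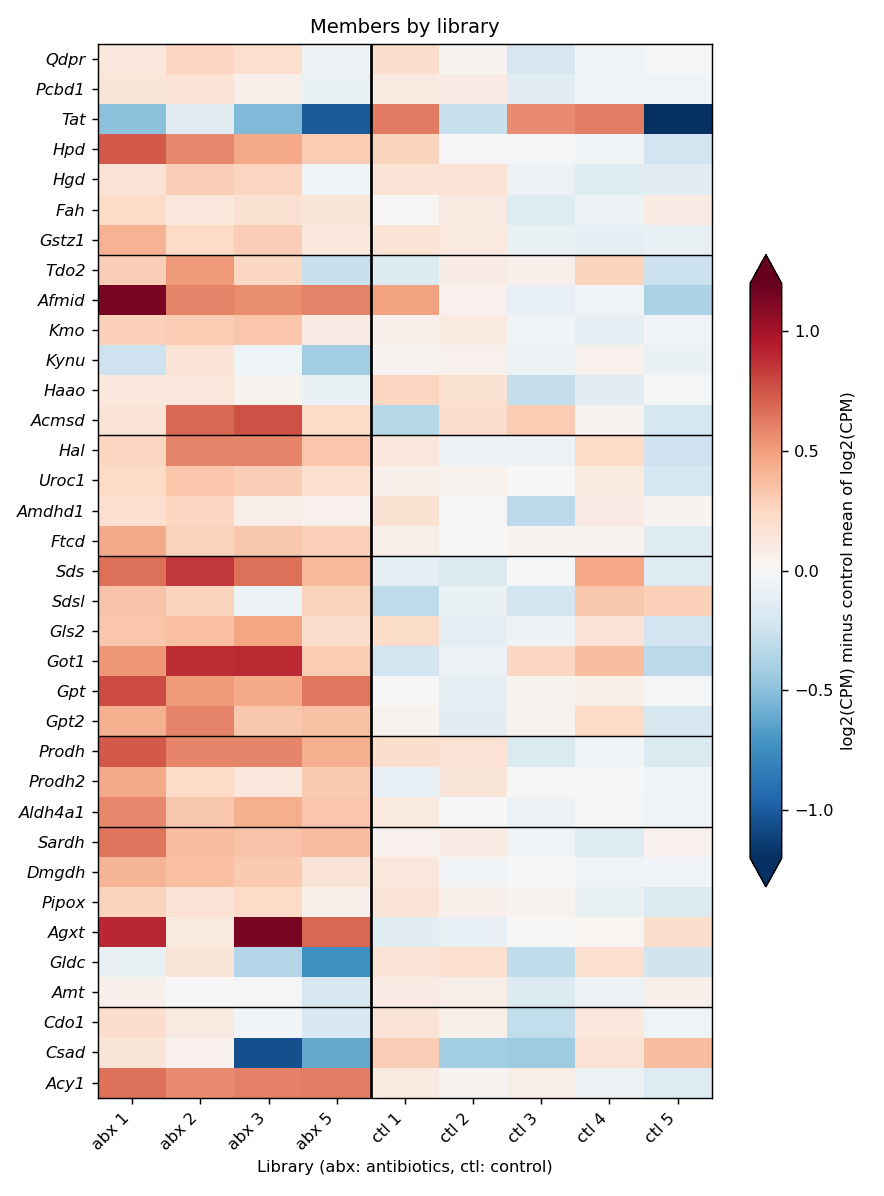
Log2 CPM of the 35 members (rows, by pathway) minus the mean of the control libraries, in each of the 9 libraries (columns), antibiotics libraries left of controls. Most rows are above 0 in the 4 antibiotics columns, and Tat and Csad vary widely among the libraries of both groups.

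The RefSeq promoter table (GRCm38.p6) holds 29 of the 35 members and 8 of the 10 that passed. Each window spans 250 bases before to 50 bases after the annotated start and was searched on both strands for 5 motifs: CACGTG (an E-box), AGAACA (a glucocorticoid receptor hexamer), TGACG (the core of the cAMP response element), AGGTCA (a nuclear receptor hexamer) and GTTAAT (an HNF1 hexamer). The 4 promoters shown are those of members that passed whose window held at least 1 match. They are written 5′ to 3′ on the strand of the gene, with matches in capitals. Ftcd lies at chr10:76575398-76575697 on the plus strand, Agxt at chr1:93134990-93135289 on the plus strand, Sardh at chr2:27247254-27247553 on the minus strand, and Acy1 at chr9:106438187-106438486 on the minus strand.
Ftcd: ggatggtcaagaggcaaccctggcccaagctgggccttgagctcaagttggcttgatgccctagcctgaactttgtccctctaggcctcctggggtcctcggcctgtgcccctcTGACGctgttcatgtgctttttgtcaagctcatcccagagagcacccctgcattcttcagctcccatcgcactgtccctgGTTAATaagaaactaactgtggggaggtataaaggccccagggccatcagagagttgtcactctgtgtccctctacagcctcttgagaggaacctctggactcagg
Agxt: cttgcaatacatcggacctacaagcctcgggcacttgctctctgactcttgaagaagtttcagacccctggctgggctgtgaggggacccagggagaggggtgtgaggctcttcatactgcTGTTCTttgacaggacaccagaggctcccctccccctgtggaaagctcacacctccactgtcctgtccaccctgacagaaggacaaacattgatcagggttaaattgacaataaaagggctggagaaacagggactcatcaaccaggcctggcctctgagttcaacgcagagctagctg
Sardh: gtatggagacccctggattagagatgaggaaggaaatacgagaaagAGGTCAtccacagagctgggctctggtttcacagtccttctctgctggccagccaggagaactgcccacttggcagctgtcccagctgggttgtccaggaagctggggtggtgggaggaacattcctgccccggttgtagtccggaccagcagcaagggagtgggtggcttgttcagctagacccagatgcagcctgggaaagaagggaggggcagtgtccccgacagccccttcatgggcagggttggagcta
Acy1: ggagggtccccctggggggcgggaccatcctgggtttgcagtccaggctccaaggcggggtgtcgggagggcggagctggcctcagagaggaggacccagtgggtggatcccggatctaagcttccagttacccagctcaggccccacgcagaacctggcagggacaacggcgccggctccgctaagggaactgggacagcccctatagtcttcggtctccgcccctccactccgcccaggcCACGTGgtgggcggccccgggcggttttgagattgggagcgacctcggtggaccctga
The Ftcd window holds 1 TGACG and 1 GTTAAT, the Agxt window 1 match to the glucocorticoid receptor hexamer (on the other strand, as TGTTCT), the Sardh window 1 AGGTCA and the Acy1 window 1 CACGTG just before the start. The windows of Hpd, Afmid, Prodh and Aldh4a1 hold none of the 5. Of the members' 31 promoters, 10 held AGGTCA, against 16.3% of 32851 promoters in the table. The glucocorticoid receptor hexamer, the TGACG core and the HNF1 hexamer were each in 4 of the 31, against 19.0%, 20.8% and 7.10% of all promoters, and CACGTG in 1, against 7.15%. Among the 8 promoters of members that passed, each motif occurred in 1. These matches describe letters in a window and are neither binding sites nor causes.

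In the phenylalanine and tyrosine pathway, 1 of 7 members rose and the median log2 fold change was 0.17. The member that rose was Hpd (ENSMUSG00000029445.13, chromosome 5, 123171807 to 123182727, minus strand, GRCm38), hydroxyphenylpyruvate dioxygenase, which makes homogentisate from the keto acid of tyrosine. Hpd had 2329, 2087, 1919 and 1730 CPM with antibiotics and 1678, 1404, 1382, 1365 and 1194 CPM in controls. Every antibiotics library was above every control. The difference was 1.44-fold (log2 fold change 0.52 ± 0.12 SE, adjusted p = 0.0453), and without any 1 library it passed only when control 1 was omitted (adjusted p = 0.0433, otherwise 0.0617 to 0.130).

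Tat, tyrosine aminotransferase, opens the same pathway and is a textbook glucocorticoid target. It had 1355, 1753, 1327 and 949 CPM with antibiotics and 2941, 1589, 2838, 2929 and 657 CPM in controls. Controls 1, 3 and 4 lay above all antibiotics libraries, while control 5 lay below them all. At -0.70 ± 0.37 on the log2 scale (SE, adjusted p = 0.340), Tat had the lowest estimate of the 35 members and did not pass. The steps after Hpd are Hgd, homogentisate dioxygenase, Gstz1, the maleylacetoacetate isomerase, and Fah, which splits fumarylacetoacetate into fumarate and acetoacetate. Fah had 580 to 622 CPM with antibiotics and 476 to 570 CPM in controls, without overlap, and a log2 difference of 0.17 ± 0.08 (SE, adjusted p = 0.291). Gstz1 averaged 586 ± 48.9 CPM with antibiotics (SD, n = 4) and 487 ± 44.7 CPM in controls (SD, n = 5), with an adjusted p of 0.153. Hgd averaged 758 ± 73.9 CPM with antibiotics (SD, n = 4) and 672 ± 74.9 CPM in controls (SD, n = 5), with an adjusted p of 0.416. Qdpr and Pcbd1, which regenerate the tetrahydrobiopterin cofactor of phenylalanine hydroxylation, had log2 fold changes of 0.13 ± 0.10 and 0.07 ± 0.08 (SE; adjusted p = 0.509 and 0.673).

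Of the 6 members of the tryptophan pathway, Afmid rose, and the median log2 fold change was 0.23. Afmid (ENSMUSG00000017718.15, chromosome 11, 117825924 to 117839908, plus strand) encodes kynurenine formamidase, the step after Tdo2. It had 93.6, 64.1, 62.4 and 64.2 CPM with antibiotics and 59.4, 43.9, 39.6, 41.2 and 32.6 CPM in controls. The groups did not overlap, and antibiotics replicate 1 stood well above the other 3. The rise was 1.64-fold (log2 fold change 0.71 ± 0.17 SE, adjusted p = 0.0487). It passed without control 1 (adjusted p = 0.0293) and with no other single library omitted (0.0627 to 0.131). Afmid shares exon sequence with Gm20708, a protein-coding gene on the same strand (1414 nt at 100% identity, 0.551 to 3.20 CPM). It also overlaps Tk1 by 83 bases on the opposite strand. Whether strand was used in the counting is not stated.

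Tdo2, tryptophan dioxygenase, is the entry step of the pathway in liver. Tdo2 had 1830, 2126, 1774 and 1241 CPM with antibiotics and 1336, 1585, 1562, 1796 and 1249 CPM in controls, so antibiotics replicate 5 was below every control. Its log2 fold change was 0.21 ± 0.16 (SE, adjusted p = 0.509). Kmo, which hydroxylates kynurenine, averaged 308 ± 22.4 CPM with antibiotics (SD, n = 4) and 259 ± 16.5 CPM in controls (SD, n = 5), and did not pass (adjusted p = 0.115). Acmsd diverts the pathway away from NAD synthesis. It had 37.4, 53.9, 56.6 and 39.3 CPM with antibiotics and 26.3, 38.8, 41.2, 34.2 and 28.8 CPM in controls, and its log2 fold change was 0.46 ± 0.16 (SE, adjusted p = 0.151). Kynu, kynureninase, and Haao, which opens the ring of hydroxyanthranilate, had log2 fold changes of -0.12 ± 0.11 and 0.05 ± 0.11 (SE; adjusted p = 0.580 and 0.870).

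The histidine pathway has 4 members, all with a log2 fold change above 0 (median 0.30), and 1 of them, Ftcd, rose. Ftcd (ENSMUSG00000001155.13, chromosome 10, 76575648 to 76590338, plus strand) passes the formimino group of histidine to folate. Ftcd had 391, 347, 359 and 349 CPM with antibiotics and 301, 287, 293, 295 and 258 CPM in controls. The lowest antibiotics library was above the highest control. The difference was 1.26-fold (log2 fold change 0.33 ± 0.08 SE, adjusted p = 0.0434), and omission of any 1 library ended the call (adjusted p = 0.0513 to 0.124).

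Hal, histidine ammonia-lyase, which makes urocanate, had 332, 421, 418 and 351 CPM with antibiotics and 306, 267, 266, 327 and 234 CPM in controls. Its groups did not overlap either, at 0.44 ± 0.11 on the log2 scale (SE, adjusted p = 0.0636). Uroc1, urocanase, had 315 to 348 CPM with antibiotics and 239 to 299 CPM in controls (log2 fold change 0.26 ± 0.08 SE, adjusted p = 0.109). Amdhd1, the next hydrolase, averaged 154 ± 10.5 CPM with antibiotics (SD, n = 4) and 140 ± 17.2 CPM in controls (SD, n = 5), with an adjusted p of 0.476.

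Serine, alanine, aspartate and glutamine are handled by 6 members, which had the highest median log2 fold change of the 7 pathways (0.51). In this pathway 2 members rose, 5 had an unadjusted p under 0.05, and none had an estimate below 0. Gpt (ENSMUSG00000022546.5, chromosome 15, 76695716 to 76699686, plus strand) encodes the alanine aminotransferase of the cytosol, which turns alanine into pyruvate. Gpt had 236, 195, 187 and 213 CPM with antibiotics and 138, 127, 141, 144 and 136 CPM in controls. The controls lay within a narrow band, and all antibiotics libraries were above it. The rise was 1.51-fold (log2 fold change 0.60 ± 0.08 SE, adjusted p = 0.00767), and leaving out 1 library gave adjusted p-values of 0.0127 to 0.0365.

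Gpt2 encodes the mitochondrial alanine aminotransferase. It had 578, 648, 538 and 548 CPM with antibiotics and 443, 394, 442, 507 and 375 CPM in controls. Without overlap between the groups, its log2 fold change of 0.42 ± 0.10 (SE) did not pass (adjusted p = 0.0555), while DESeq2 called it (adjusted p = 0.00258). The log2 ratio of Gpt to Gpt2 was -1.48 ± 0.19 with antibiotics (SD, n = 4) and -1.65 ± 0.13 in controls (SD, n = 5), a difference of 0.17 (exact two-sided permutation test, p = 0.159).

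Sds (ENSMUSG00000029597.14, chromosome 5, 120476526 to 120483932, plus strand), serine dehydratase, turns serine into pyruvate and ammonia. It had 313, 357, 312 and 259 CPM with antibiotics and 182, 175, 196, 273 and 178 CPM in controls. Control 4 was above antibiotics replicate 5, and the other 4 controls were below all antibiotics libraries. The rise was 1.54-fold (log2 fold change 0.63 ± 0.14 SE, adjusted p = 0.0408). With 1 library omitted it passed only where that library was control 4 (adjusted p = 0.0160, otherwise 0.0574 to 0.109). Exons of Plbd2 and Gm15690 overlap those of Sds on the opposite strand, and Plbd2, which shares 365 nt at 99.7% identity, had 43.9 to 55.9 CPM. Sdsl, a dehydratase-like relative of Sds, had 8.43, 7.97, 6.35 and 8.03 CPM with antibiotics and 5.38, 6.28, 5.67, 8.28 and 8.08 CPM in controls (log2 fold change 0.20 ± 0.15 SE, adjusted p = 0.533). The log2 ratio of Sds to Sdsl was 5.33 ± 0.27 with antibiotics (SD, n = 4) and 4.90 ± 0.27 in controls (SD, n = 5), a difference of 0.43. An exact two-sided permutation test gave p = 0.0635, and 0.127 after Benjamini-Hochberg adjustment over the 4 ratios of paired enzymes.

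Got1, the cytosolic aspartate aminotransferase, had 571, 737, 742 and 491 CPM with antibiotics and 339, 379, 474, 515 and 318 CPM in controls. Only control 4 exceeded an antibiotics library, replicate 5. The log2 fold change of 0.65 ± 0.17 (SE) did not pass (adjusted p = 0.0652), although it is larger than that of Gpt, which varied less. Gls2, the liver glutaminase, averaged 362 ± 27.2 CPM with antibiotics (SD, n = 4) and 286 ± 38.6 CPM in controls (SD, n = 5), with an adjusted p of 0.112.

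Both mitochondrial steps of proline breakdown rose. Prodh (ENSMUSG00000003526.12, chromosome 16, 18060357 to 18090203, minus strand), proline dehydrogenase, had 213, 191, 191 and 172 CPM with antibiotics and 147, 144, 113, 125 and 113 CPM in controls. Aldh4a1 (ENSMUSG00000028737.15, chromosome 4, 139622866 to 139649690, plus strand), which oxidises the pyrroline-carboxylate product to glutamate, had 444, 374, 404 and 376 CPM with antibiotics and 324, 297, 284, 296 and 290 CPM in controls. For both genes every antibiotics library was above every control. Prodh rose 1.49-fold (log2 fold change 0.58 ± 0.10 SE, adjusted p = 0.0188) and Aldh4a1 1.34-fold (0.42 ± 0.08 SE, adjusted p = 0.0239). Prodh did not pass without antibiotics replicate 1, 3 or 5 (adjusted p = 0.0670, 0.0603 and 0.0523). Aldh4a1 did not pass without antibiotics replicate 1, 3 or 5 or control 2 or 4 (0.0540 to 0.0780). Aldh4a1 shares exon sequence with Gm21969, a protein-coding gene on the same strand, which had at most 0.429 CPM.

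Prodh2, which oxidises hydroxyproline, had 147, 126, 118 and 133 CPM with antibiotics and 99.9, 118, 107, 105 and 105 CPM in controls. Antibiotics replicate 3 and control 2 lay close together, and the log2 fold change of 0.29 ± 0.08 (SE) did not pass (adjusted p = 0.0719). The log2 ratio of Prodh to Prodh2 was 0.55 ± 0.14 with antibiotics (SD, n = 4) and 0.26 ± 0.19 in controls (SD, n = 5), a difference of 0.30. An exact two-sided permutation test over 126 splits gave p = 0.0476 for it, and p = 0.127 after Benjamini-Hochberg adjustment over the 4 ratios of paired enzymes. All 4 ratios were picked with their values in view, so their p-values only describe them.

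**Figure D3:**
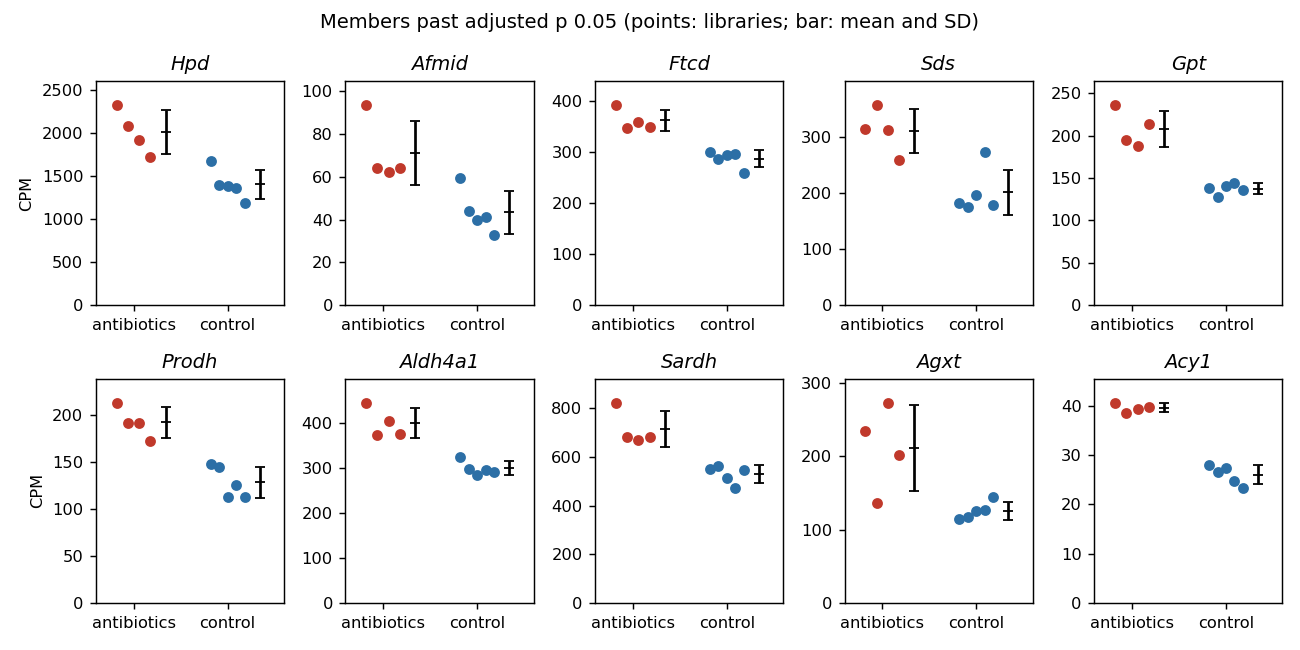
CPM of the 10 members that passed, in each library, antibiotics libraries left of controls in every panel; points are libraries, horizontal lines the group means and bars the SDs (n = 4 and n = 5). The groups overlap in the panels of Sds and Agxt and in none of the other 8.

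The glycine and sarcosine group has 6 members, of which Sardh and Agxt rose, while Gldc and Amt of the glycine cleavage system did not. Sardh (ENSMUSG00000009614.16, chromosome 2, 27188393 to 27248337, minus strand), the mitochondrial sarcosine dehydrogenase, had 824, 684, 671 and 683 CPM with antibiotics and 549, 563, 513, 474 and 549 CPM in controls. The groups were apart, with antibiotics replicate 1 far above the other 3. Its rise was 1.35-fold (log2 fold change 0.43 ± 0.09 SE, adjusted p = 0.0361), and it passed without control 3 or 5 but not with any of the other 7 libraries omitted (adjusted p = 0.0584 to 0.105). An antisense gene, Sardhos, overlaps Sardh. Dmgdh, dimethylglycine dehydrogenase, acts just before Sardh in the breakdown of choline-derived methyl groups. Dmgdh had 602, 584, 565 and 506 CPM with antibiotics and 499, 443, 450, 436 and 443 CPM in controls. No control reached the antibiotics libraries, but the log2 fold change of 0.31 ± 0.08 (SE) did not pass (adjusted p = 0.0648). The log2 ratio of Sardh to Dmgdh differed by 0.12 between antibiotics (0.34 ± 0.12, SD, n = 4) and control livers (0.22 ± 0.10, SD, n = 5; exact two-sided permutation test, p = 0.143).

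Agxt (ENSMUSG00000026272.6, chromosome 1, 93135240 to 93145421, plus strand) encodes alanine-glyoxylate aminotransferase, which returns glyoxylate to glycine. Agxt had 235, 136, 273 and 202 CPM with antibiotics and 114, 117, 126, 127 and 145 CPM in controls. Antibiotics replicate 2 lay among the controls, and the other 3 were above them all. The 1.68-fold rise was the largest of the 35 members (log2 fold change 0.75 ± 0.16 SE, adjusted p = 0.0389). Agxt passed without antibiotics replicate 2 (adjusted p = 0.0115) and without control 5, and in the other 7 such fits the adjusted p was 0.0536 to 0.115.

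Pipox, which oxidises pipecolate and sarcosine, had an interval that just reached 0 (log2 fold change 0.18 ± 0.08 SE, adjusted p = 0.276). Neither member of the glycine cleavage system passed the test. Gldc, its decarboxylase, averaged 106 ± 26.5 CPM with antibiotics (SD, n = 4) and 125 ± 20.8 CPM in controls (SD, n = 5; log2 fold change -0.24, 95% interval -0.61 to 0.13). Amt, its aminomethyltransferase, averaged 34.7 ± 2.56 CPM with antibiotics (SD, n = 4) and 35.7 ± 2.72 CPM in controls (SD, n = 5; log2 fold change -0.04, 95% interval -0.22 to 0.13).

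Among the 3 members for cysteine and acylated amino acids, Acy1 rose. Acy1 (ENSMUSG00000023262.13, chromosome 9, 106432981 to 106438319, minus strand), aminoacylase, frees amino acids from their N-acetyl forms. Acy1 had 40.6, 38.5, 39.4 and 39.8 CPM with antibiotics and 27.9, 26.6, 27.4, 24.7 and 23.3 CPM in controls. The libraries of each group lay close together and the groups were far apart. The rise was 1.52-fold (log2 fold change 0.61 ± 0.07 SE, adjusted p = 0.00384). Acy1 had the smallest p of the 35 members and the ninth smallest of all tested genes, and omission of 1 library gave adjusted p-values of 0.00431 to 0.0232.

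Cdo1 and Csad lead from cysteine to taurine. Cdo1, cysteine dioxygenase, averaged 1181 ± 137 CPM with antibiotics (SD, n = 4) and 1162 ± 139 CPM in controls (SD, n = 5; log2 fold change 0.02, 95% interval -0.23 to 0.28). Csad, cysteine sulfinate decarboxylase, had 147, 138, 63.9 and 87.6 CPM with antibiotics and 163, 100, 99.1, 150 and 171 CPM in controls. Both groups were widely spread, and the log2 fold change was -0.33 ± 0.25 (SE, adjusted p = 0.525).

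**Figure D4:**
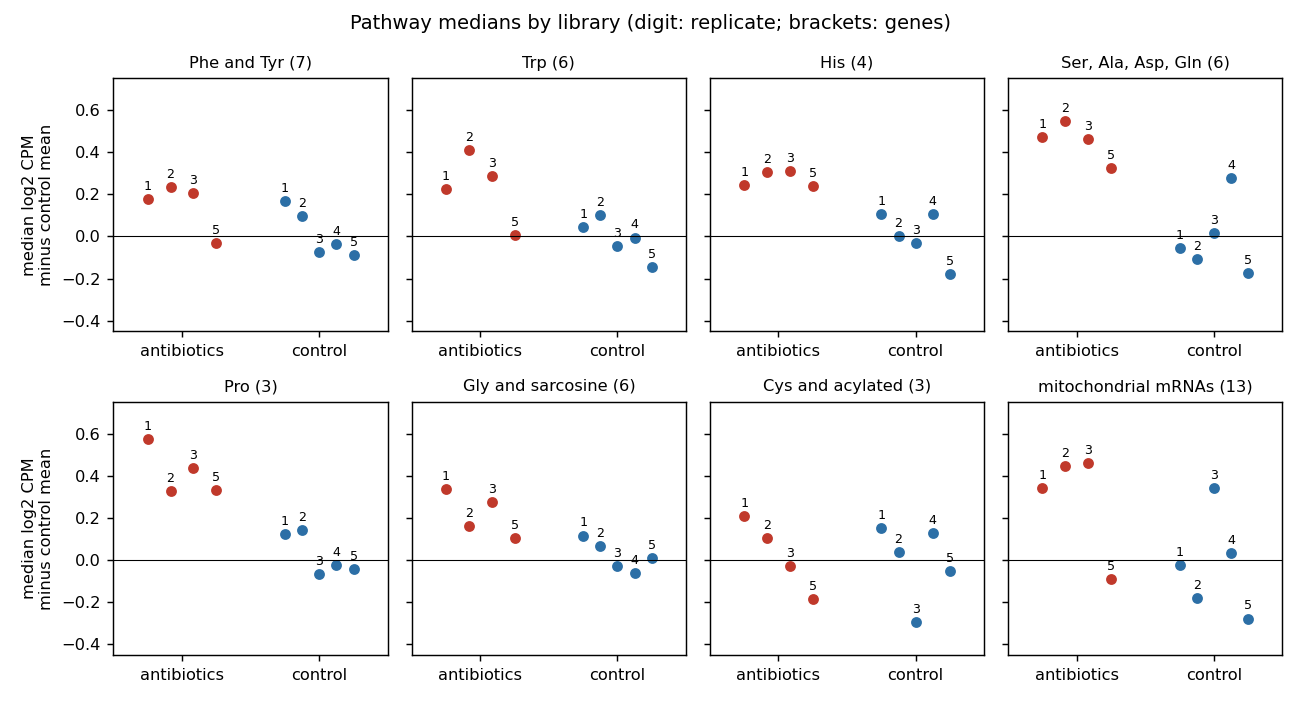
Median log2 CPM of the members of each of the 7 pathways, and of the 13 mitochondrially encoded mRNAs in the last panel, minus the control mean; each point is 1 library with its replicate number, antibiotics left of controls. All antibiotics libraries are above all controls for the histidine, proline, and serine, alanine, aspartate and glutamine groups, and the groups of libraries overlap in the other panels.

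Levels per length (TPM over the merged exons of each gene) spread the members over a wide range. Tat had the highest mean in controls, 1928 ± 949 TPM (SD, n = 5), and 1165 ± 265 TPM with antibiotics (SD, n = 4). Hpd came first with antibiotics, at 1977 ± 195 TPM, and behind Tat and Cdo1 in controls, at 1381 ± 189 TPM. Cdo1 was second in both groups, at 1499 ± 134 TPM with antibiotics and 1481 ± 222 TPM in controls. Tdo2 (935 ± 175 TPM with antibiotics, 815 ± 155 TPM in controls) and Hgd (605 ± 40.5 and 537 ± 53.9 TPM) followed in both groups. At the low end Acy1 had 27.9 ± 1.56 TPM with antibiotics and 18.3 ± 1.504 TPM in controls, and Sdsl 10.8 ± 1.56 TPM and 9.45 ± 2.20 TPM. Merged exons can include rarely used ones, which lowers such levels.

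Summed over the pathway, the serine, alanine, aspartate and glutamine enzymes reached 1494 ± 121 TPM with antibiotics (SD, n = 4) and 1027 ± 206 TPM in controls (SD, n = 5). The proline enzymes summed to 333 ± 22.8 TPM with antibiotics and 253 ± 15.9 TPM in controls, and the glycine and sarcosine enzymes to 1156 ± 64.7 TPM and 895 ± 38.7 TPM. The phenylalanine and tyrosine enzymes, where Tat and Hpd dominate, summed to 5476 ± 462 TPM with antibiotics and 5409 ± 1176 TPM in controls, a difference smaller than the spread of either group. The sum over all 35 members was 12194 ± 853 TPM with antibiotics and 11006 ± 1710 TPM in controls, so their total also differed by less than the spread between control libraries.

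**Figure D5:**
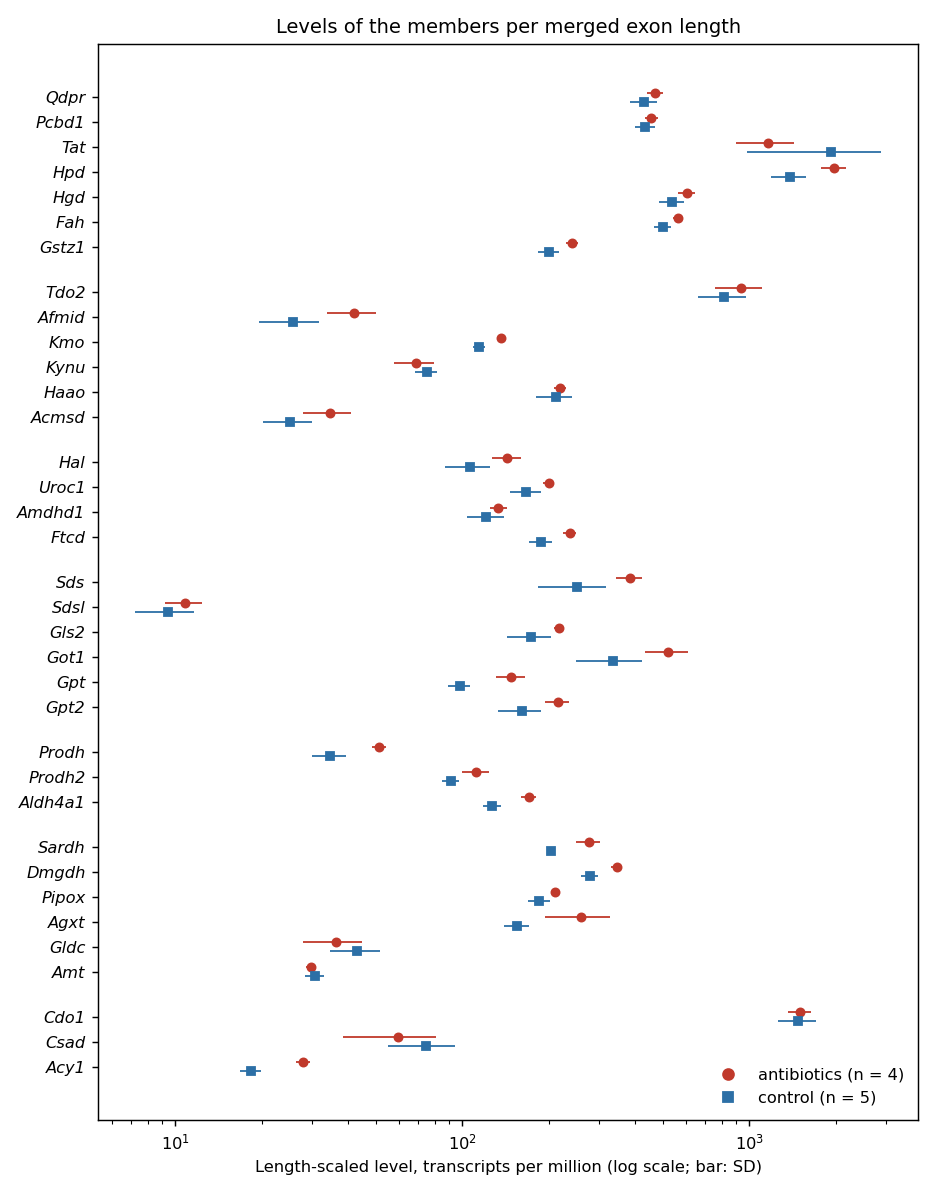
Level of each of the 35 members in TPM (log axis), mean and SD per group, antibiotics drawn above control for each gene (n = 4 and n = 5). In controls, means run from 9.45 TPM for Sdsl to 1928 TPM for Tat.

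The other genes of the same pathways that passed went in both directions. Of 66 listed genes that are not among the 35, 60 were tested, and 3 rose, 3 fell and 54 did not pass; the median log2 fold change was 0.09. Among all tested genes 1.63% passed as higher and 1.05% as lower. At an unadjusted p under 0.05, 16 of the 60 were higher and 7 lower, against 9.6% and 8.87% of all tested genes. Without antibiotics replicate 1, or without replicate 3, 0 of the 60 passed. Oat, ornithine aminotransferase, which feeds the same pyrroline-carboxylate pool as Prodh, had 1007, 1046, 967 and 782 CPM with antibiotics and 571, 654, 635, 445 and 605 CPM in controls (log2 fold change 0.71 ± 0.13 SE, adjusted p = 0.0200). Abat, the transaminase of gamma-aminobutyrate, had 386, 317, 374 and 302 CPM with antibiotics and 245, 217, 237, 235 and 203 CPM in controls (0.60 ± 0.10 SE, adjusted p = 0.0140). Aspa, which splits N-acetylaspartate, averaged 9.87 ± 0.654 CPM with antibiotics (SD, n = 4) and 6.76 ± 1.21 CPM in controls (SD, n = 5; adjusted p = 0.0474), and, with 1 library omitted, passed only without control 3. Oat and Abat did not pass without antibiotics replicate 1 (adjusted p = 0.0678 and 0.0544) or 3 (0.0647 and 0.0518).

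The 3 genes that fell include enzymes that build amino acids. Aldh18a1, which makes pyrroline-carboxylate from glutamate for proline synthesis, had 1.44, 1.84, 1.66 and 1.38 CPM with antibiotics and 2.52, 4.84, 3.10, 2.77 and 5.03 CPM in controls (log2 fold change -1.22 ± 0.25 SE, adjusted p = 0.0330). Psph, the last enzyme of serine synthesis, had 3.72, 4.24, 4.25 and 4.75 CPM with antibiotics and 5.43, 7.07, 7.02, 6.69 and 7.67 CPM in controls (-0.66 ± 0.13 SE, adjusted p = 0.0250), and its exons overlap those of Cct6a on the opposite strand. The shared stretch is 255 nt at 100% identity, and Cct6a had 91.0 to 105.6 CPM, far above Psph. As the use of strand in the counting is not stated, the values of Psph are uncertain. Kyat3, a kynurenine aminotransferase, averaged 184 ± 5.19 CPM with antibiotics (SD, n = 4) and 253 ± 19.8 CPM in controls (SD, n = 5; -0.46 ± 0.08 SE, adjusted p = 0.0156). In all 3 every antibiotics library was below every control. Kyat3 did not pass without antibiotics replicate 1, 3 or 5 (adjusted p = 0.0544, 0.0603 and 0.0569), while Aldh18a1 passed in 4 and Psph in 3 of the 9 fits with 1 library omitted.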

How the data were processed

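Per the labels' protocols, livers were flash frozen in RNAlater, RNA was isolated with Trizol and RNeasy columns, and TruSeq stranded mRNA libraries were made. The authors deposited estimated counts, 1 value per gene and library and all whole numbers; the submitters' processing notes name Salmon and GRCm38. Its version and settings, and any use of strand, are not given in the labels. All 54393 identifiers occur in GENCODE M21, which supplied symbols and positions.

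Groups came from the labels, which do not say that each library is its own mouse, so p-values reflect how far these libraries vary, which may be technical. Within groups, chi-square per degree of freedom between libraries was at least 20.2, so all 9 were kept. Genes passing filterByExpr (minimum count 10, total 15) were tested with the quasi-likelihood method of edgeR 4.0.16 in R 4.3.3 (TMM factors, trended dispersion, biological coefficient of variation 16.7%, group as the only term, two-sided), after a check on simulated counts. Alternatives were DESeq2 1.42.0, limma-voom (limma 3.58.1), upper-quartile or RLE factors, no filter, a mean of 1 CPM, removal of the 10 most abundant genes from library sizes, thinning, a replicate block, a threshold of 0.1 and omission of each library. TPM used merged exon lengths of M21. Close copies were sought with BLAST+ 2.17.0 (95% identity, 200 nt).

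The members, the related genes and the cell type markers were chosen with earlier results of these data known. Values in every library were planned for members that passed, for the paired enzymes and, where none passed, for the member with the smallest p; others (Tat, Tdo2, Acmsd, Hal, Got1, Csad) were picked with their values in view. So were the ratios of paired enzymes. The hepatocyte marker Tf matched no symbol, and Gcat, with 2 identifiers, was left out. Protein sequences were not used here.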

Additional observations from a re-analysis of the deposited data

Results flagged for a closer look

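In 4 of 70 groups of libraries (35 members, antibiotics and controls apart), 1 library lay far from the others by Dixon's test at the 95% level, where chance gives about 1 in 20. Afmid had 93.58 CPM in antibiotics replicate 1, against 62.38 to 64.24 CPM in the other antibiotics libraries (gap over range 0.940, critical value 0.829). Sardh had 823.6 CPM in the same library, against 670.7 to 683.8 CPM in the others (0.915, critical value 0.829). Sds had 272.6 CPM in control 4, against 175.1 to 196.4 CPM in the other controls (0.781, critical value 0.710). Dmgdh had 498.8 CPM in control 1, against 436.4 to 449.8 CPM in the other controls (0.785, critical value 0.710).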

How the results depend on the processing

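The number of genes that passed was 398, and 975 with DESeq2, 179 with a replicate block (replicates 1, 2, 3 and 5, so without control 4), 178 after thinning, 937 at an adjusted p under 0.1 and 36 to 455 with 1 library left out. For the members it was 10, and 18 with DESeq2, 15 at 0.1 and 2 to 6 with 1 library left out; RLE factors gave 10, upper-quartile factors 11, limma-voom 11, no filter 8, 1 CPM 10, library sizes without the most abundant genes 10, thinning 8 and the block on those libraries 9. For the related genes it was 6, and 12 with DESeq2, 11 at 0.1 and 0 to 7 with 1 library left out. The members' median log2 fold change stayed between 0.24 and 0.31. Estimates near 0 changed sign for Haao (-0.020 to 0.116 with 1 library left out, lowest without control replicate 3), Amt (0.018 after thinning, -0.082 to 0.010 with 1 library left out, highest without antibiotics replicate 5) and Cdo1 (-0.043 to 0.090, below 0 without control replicate 3 or antibiotics replicate 1). Over single members and settings, 546 estimates kept direction and side of the threshold, 64 no longer passed, 15 newly passed and 5 changed sign. Libraries with the same replicate number did not deviate together (r = -0.00, -0.06, 0.03 and 0.10), so the numbers are not treated as pairs; with the replicate block, which also leaves out control 4, 179 genes, 9 members and 5 related genes passed, against 144 genes, 5 members and 4 related genes without control 4 and with no block. Thinned, blocked and left-out fits use fewer reads or samples; for the other changes the cause was not tested.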
